A study of Mus musculus with 6 samples.

Results

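The 9 genes of glycogen synthesis and breakdown followed here in sorted mouse photoreceptors are Pygm, Pygb, Pygl, Gys1, Gbe1, Gyg, Ugp2, Phka1 and Phkg1. All 9 were found by symbol among the 49997 genes counted. These genes were chosen by their place in the pathway, but with the difference in Pygm between the Nr2e3 guide and the control guide already known. The differences between the groups given below for the 9 genes are therefore descriptions, and nothing is supported with them.

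The series holds 6 RNA libraries from Rosa26-Cas9 mice, whose cells all carry SpCas9. Subretinal injection delivered an adeno-associated virus with the 7m8 capsid. In 3 mice it carried a guide RNA against Nr2e3 (1 male, replicate 1, and 2 females, replicates 2 and 3), and in 3 male mice a non-targeting control guide. The labels put injection at postnatal day 21 in one place and at 4 weeks in another. The same virus expressed mCherry from a human GRK1 promoter, which is active in photoreceptors, and about 100000 mCherry-positive cells from the 2 retinas of each animal were sorted 6 months later. Controls therefore share the Cas9, the virus, the surgery and the sort with the guide animals. Sorting by a promoter active in rods and cones leaves rods and cones together in each library, and no count reads whether Nr2e3 was edited in a given cell.

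Glycogen is a branched store of glucose. Glycogenin (Gyg) primes a chain, Ugp2 makes the UDP-glucose that glycogen synthase (Gys1 outside the liver) adds to it, and the branching enzyme Gbe1 makes the branches. Glycogen phosphorylase releases glucose-1-phosphate from the chain ends and exists in muscle (Pygm), brain (Pygb) and liver (Pygl) forms. Phosphorylase kinase activates it and is built from alpha (Phka1 or Phka2), beta (Phkb) and gamma (Phkg1 or Phkg2) subunits with calmodulin as the fourth. In the retina the store is best known from Muller glia. Nr2e3 encodes a nuclear receptor of rods that represses cone genes.

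Depth was 24705561 to 33098812 gene counts in guide and 32626751 to 34286248 in control libraries. Levels are given in CPM, the count scaled to the TMM-normalised library size, and 3 counts corresponded to 0.0802 to 0.131 CPM. Nr2e3 read 2094, 1906 and 2244 CPM with its guide and 1756, 1572 and 1507 CPM with the control guide, which does not check the labels, since counts over a whole gene do not read small insertions or deletions. Rod markers were abundant in every library, with Sag at 30750 to 36920 CPM. Control replicate 3 stood apart from the other controls. Its 7 microglia markers summed to 234.5 CPM against 21.9 and 23.5 CPM in control replicates 1 and 2, and 8 of 9 cone markers lay below both other controls there.

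Most of the results turn on the muscle form of phosphorylase, so the 250 bases before the RefSeq start of Pygm are shown with those of the brain and liver forms (RefSeq, GRCm38.p6, each on the strand of its gene). Pygm lies at chr19:6384158-6384407 (plus strand), Pygb at chr2:150786546-150786795 (plus strand) and Pygl at chr12:70227684-70227933 (minus strand). Capitals mark matches to the motifs searched.

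Pygm: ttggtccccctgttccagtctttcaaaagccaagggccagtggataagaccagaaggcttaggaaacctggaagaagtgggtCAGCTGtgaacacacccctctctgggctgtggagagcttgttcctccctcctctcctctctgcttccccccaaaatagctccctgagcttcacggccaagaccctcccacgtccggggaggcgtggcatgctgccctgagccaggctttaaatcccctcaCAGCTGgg
Pygb: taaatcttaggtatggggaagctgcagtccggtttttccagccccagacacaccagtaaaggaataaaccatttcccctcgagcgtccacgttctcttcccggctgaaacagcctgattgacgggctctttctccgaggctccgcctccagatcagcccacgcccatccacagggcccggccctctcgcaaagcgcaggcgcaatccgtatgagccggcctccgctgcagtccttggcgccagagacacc
Pygl: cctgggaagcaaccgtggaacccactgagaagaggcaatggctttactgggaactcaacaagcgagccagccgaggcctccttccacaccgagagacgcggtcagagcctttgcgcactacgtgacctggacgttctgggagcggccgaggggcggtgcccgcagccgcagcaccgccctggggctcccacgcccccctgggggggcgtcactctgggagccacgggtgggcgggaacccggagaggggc

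The motifs were TAATCC, a site of the photoreceptor factor CRX, AAGTCA, a half-site bound by NR2E3, TGCTGA, a core of NRL sites, TATAAA, the TATA box, and CANNTG, the E-box, all on both strands. The Pygm window held 2 E-boxes, both of the form CAGCTG, at positions -168 and -8 counted from the start, and no match to the other 4 motifs. The windows of Pygb and Pygl held none of the 5, while those of the other 6 members each held at least 1 E-box, and that of Phkg1 also TCAGCA, the reverse complement of the NRL core, at -203. An E-box occurred in 66.2% of 32851 windows of this length and 2 or more in 31.8%. For CAGCTG, chosen after the match was seen and a form of CANNTG, the shares were 13.0% and 1.26%. Over the same windows TAATCC occurred in 6.25%, AAGTCA in 13.1%, TGCTGA in 16.1% and TATAAA in 12.4%. A match is a string of letters here and says nothing of binding, and a missing match says only that the letters are not in the window. GC content was 58.4% for Pygm, 60.0% for Pygb and 69.2% for Pygl.

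In control photoreceptors the muscle form was by far the most abundant of the 9 transcripts. Divided by exon length (union of the exons in GENCODE M21), Pygm stood at 75.4, 82.5 and 137.6 CPM per kb in control replicates 1, 2 and 3. Pygb followed at 8.96 ± 0.899 CPM per kb (SD, n = 3) and Gyg at 6.65 ± 1.12 CPM per kb. Gys1 was at 2.73 ± 1.26, Phka1 at 2.67 ± 0.825 and Ugp2 at 1.83 ± 0.878 CPM per kb. The lowest levels were those of Gbe1 (0.855 ± 0.257), Pygl (0.576 ± 0.221) and Phkg1 (0.12 ± 0.055 CPM per kb). Pygm lay above every other member in every control library, and the ranges of Pygb and Gyg did not overlap in these libraries, whose lowest Pygb value was 7.95 and highest Gyg value 7.56 CPM per kb. Gys1, Phka1 and Ugp2 overlapped in their ranges, as did Gbe1 and Pygl, so the order within those groups is not settled. Division by coding length left all 9 ranks as they were.

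**Figure D1:**
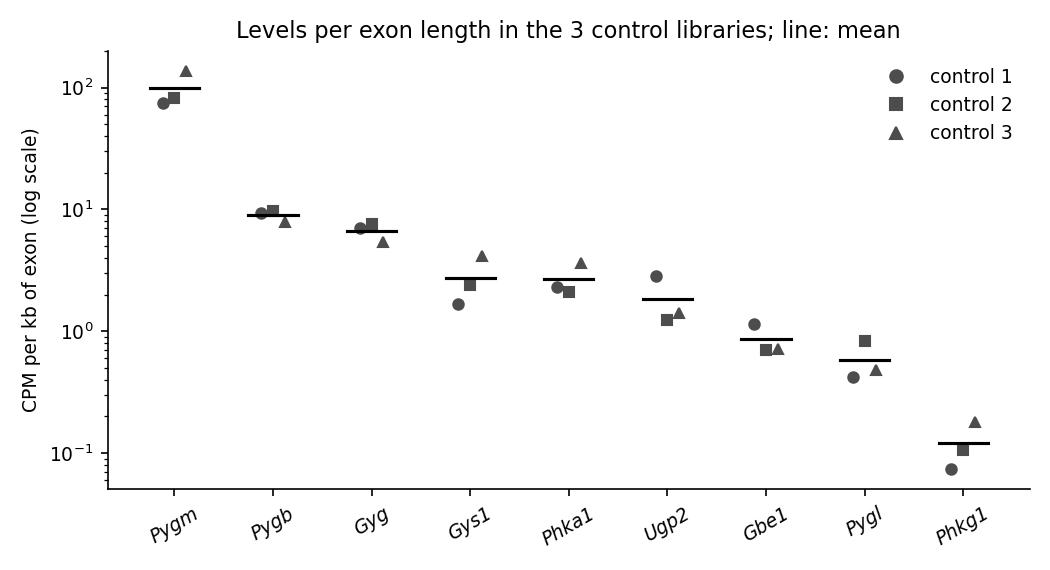
Level of each of the 9 genes in the 3 control libraries, in CPM per kb of exon on a log axis; each point is a library and the line is the mean. Pygm, at 75.4 to 137.6 CPM per kb, lies above all other members, and Phkg1 is lowest at 0.12 on average.

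Among the phosphorylases, Pygm (GRCm38 chromosome 19, 6384408 to 6398464) was at 750.4, 795.1 and 921.0 CPM in guide libraries and 242.6, 265.4 and 442.8 CPM in control libraries. Each guide library lay above each control library, and the highest control was replicate 3. The mean was 822 ± 88.5 against 317 ± 110 CPM, 2.59-fold, with a log2 fold change of 1.38 (SE 0.24). The male guide library, at 750.4 CPM, was also above all 3 male controls. No exon of Pygm overlaps another gene in GENCODE M21. In bulk RNA of this kind, more cells that hold a transcript and more transcript per cell cannot be told apart, and neither can a change within rods from one within cones.

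Pygb, the brain form (chromosome 2, 150786796 to 150831748), had the opposite order. It was at 28.3, 23.7 and 35.7 CPM with the Nr2e3 guide and 44.5, 46.5 and 38.2 CPM with the control guide, so that all guide libraries lay below all controls. Its log2 fold change was -0.56 (SE 0.19). The gap between the closest libraries, guide replicate 3 and control replicate 3, was small beside the spread within each group. Pygl, the liver form (chromosome 12, 70190815 to 70227683), was scarce, at 1.44, 2.66 and 3.12 CPM with the Nr2e3 guide and 2.89, 5.71 and 3.31 CPM with the control guide. These levels rest on 38 to 198 counts, the groups overlapped, and the log2 fold change was -0.72 (SE 0.44). It ran from -1.46 with a sex term to -0.37 without control replicate 2.

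**Figure D2:**
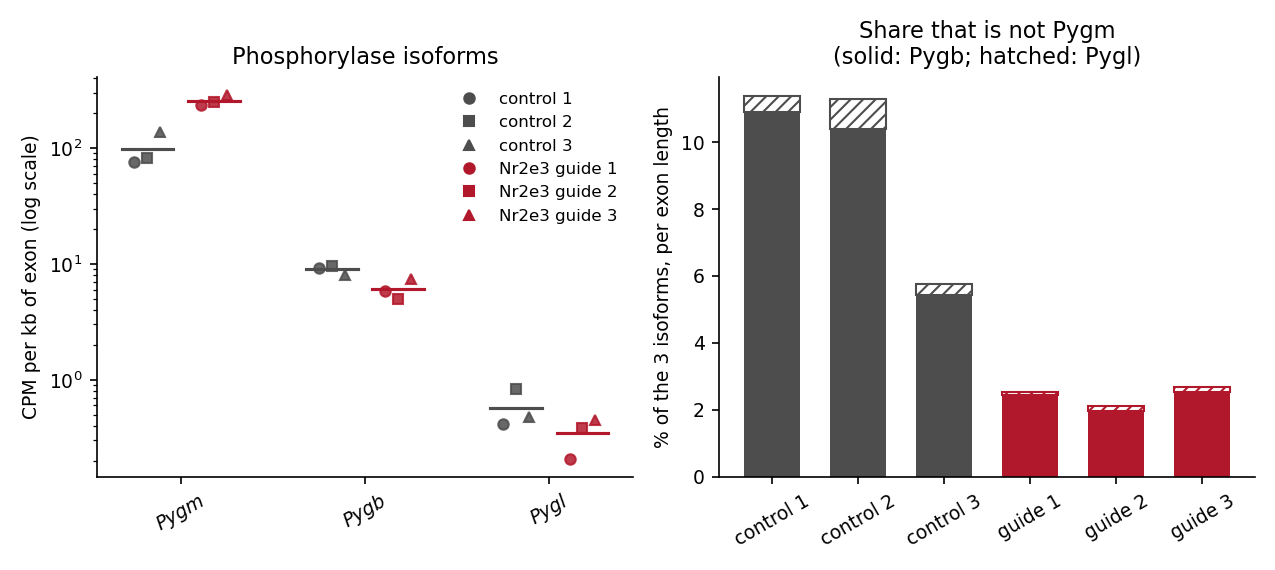
Left, CPM per kb of exon on a log axis for the 3 phosphorylase genes in each library, with the mean as a line. Right, the percentage of the 3 isoforms that is Pygb (solid) or Pygl (hatched) in each library; Pygb is 5.44 to 10.9% in controls and 1.95 to 2.52% in guide libraries.

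Compared within a library, where depth and scaling cancel, Pygm made up 88.6, 88.7 and 94.2% of the 3 phosphorylase transcripts per exon length in control replicates 1 to 3 and 97.4, 97.9 and 97.3% in guide replicates 1 to 3. Pygb took 10.9, 10.4 and 5.44% in controls and 2.46, 1.95 and 2.52% in guide libraries. The ratio of Pygm to Pygb was 8.14, 8.53 and 17.3 in controls and 39.6, 50.1 and 38.6 in guide libraries, with no overlap. By contrast, the ratio of Pygb to Pygl overlapped between the groups, at 11.7 to 22.1 in controls and 12.8 to 28.2 in guide libraries. Control replicate 3 was the control nearest to the guide libraries in the share of Pygm. An exact permutation test of 3 against 3 libraries cannot give a two-sided p under 0.1, and none was run on these shares.

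Neither kinase subunit among the members separated the groups. Phka1, the muscle alpha subunit, is X-linked (chromosome X, 102513975 to 102644301) and was at 11.8, 17.6 and 21.5 CPM with the Nr2e3 guide and 14.3, 13.2 and 22.6 CPM with the control guide. Among libraries of the same group Phka1 varied with Pygm (r = 0.83 on deviations from the group means). That r rests on 6 libraries, and control replicate 3 was the highest control for both genes. It was not particular to Phka1, since the same measure gave 0.97 for the cone marker Gnb3 and -0.99 for the cone marker Pde6c. For Phka1 the groups overlapped over nearly their whole range, with a log2 fold change of 0.02 (SE 0.31). Within the guide group the male library was lowest, while the male controls spanned 13.2 to 22.6 CPM. Phkg1, the muscle gamma subunit, was near the limit of the data with 9, 17 and 7 counts in guide and 15, 24 and 44 counts in control libraries. It was at 0.429 ± 0.277 against 0.781 ± 0.358 CPM (a log2 fold change of -0.88, SE 0.70). Without guide replicate 2 the log2 fold change was -1.52 and without control replicate 3 it was -0.46. Of its exons 9.68% of the length overlaps Sumf2 on the opposite strand, whose reads cannot be separated without strand.

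The other form of each subunit, fixed in a wider pathway list, gave context. Per exon length Phka1 made up 50.7, 44.6 and 61.2% of the 2 alpha forms in controls and 63.2, 58.2 and 66.6% in guide libraries, with overlap. Phka2 was at 9.79 ± 2.88 CPM with the Nr2e3 guide and 14.4 ± 1.25 CPM with the control guide without overlap (a log2 fold change of -0.56 with SE 0.27 and an edgeR adjusted p of 0.926). Phkg2 was the main gamma form, since Phkg1 made up 0.821 to 5.07% of the pair in any library. Phkg2 (log2 fold change 0.12, SE 0.23) and the beta subunit Phkb (0.24, SE 0.28) each had edgeR adjusted p = 0.995, and 21.9% of the exon length of Phkg2 overlaps Ccdc189. The calmodulin gene Calm2 was at 730 ± 150 CPM with the Nr2e3 guide and 612 ± 156 CPM with the control guide, within the spread of the libraries. Calm3 was lower in level, at 58.7 ± 13.6 and 65.7 ± 13.5 CPM.

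On the synthesis side no member separated the groups. Gys1, glycogen synthase (chromosome 7, 45434839 to 45456617), was at 8.87, 8.70 and 11.0 CPM with the Nr2e3 guide and 7.97, 11.5 and 19.7 CPM with the control guide. Its log2 fold change was -0.46 (SE 0.35) in all 6 libraries and -0.04 (SE 0.27) without control replicate 3, which held the highest value. Exons of Ruvbl2 on the opposite strand cover 6.47% of its exon length. Gyg, glycogenin (chromosome 3, 20122083 to 20155117), was at 13.5, 14.6 and 17.1 CPM with the Nr2e3 guide and 16.4, 17.7 and 12.7 CPM with the control guide (a log2 fold change of -0.05, SE 0.21).

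Gbe1, the branching enzyme (chromosome 16, 70313949 to 70569720), was at 6.41, 7.57 and 5.74 CPM with the Nr2e3 guide and 6.16, 3.72 and 3.85 CPM with the control guide. Only control replicate 1 reached the guide range, and the log2 fold change was 0.52 (SE 0.31). Ugp2, which supplies UDP-glucose (chromosome 11, 21321126 to 21371267), was at 9.52, 7.57 and 5.74 CPM with the Nr2e3 guide and 8.70, 3.81 and 4.30 CPM with the control guide. Control replicate 1 was again the only control within the guide range, and the log2 fold change was 0.44 (SE 0.39).

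The 3 phosphorylases summed per exon length stood at 129.1, 138.9 and 127.6 times the level of Gys1 in guide libraries and at 51.1, 38.6 and 35.5 times in controls, with no overlap. Without Pygm the ratio of Pygb and Pygl to Gys1 was 3.21 ± 0.254 in guide and 4.07 ± 1.90 in control libraries and overlapped. The ratio of phosphorylase to Gys1 transcripts thus separated the groups with Pygm in the sum and overlapped without it. Pygm made up most of that sum, and its difference was known when the genes were chosen. Gbe1, Gyg and Ugp2 were not part of the ratio.

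**Figure D3:**
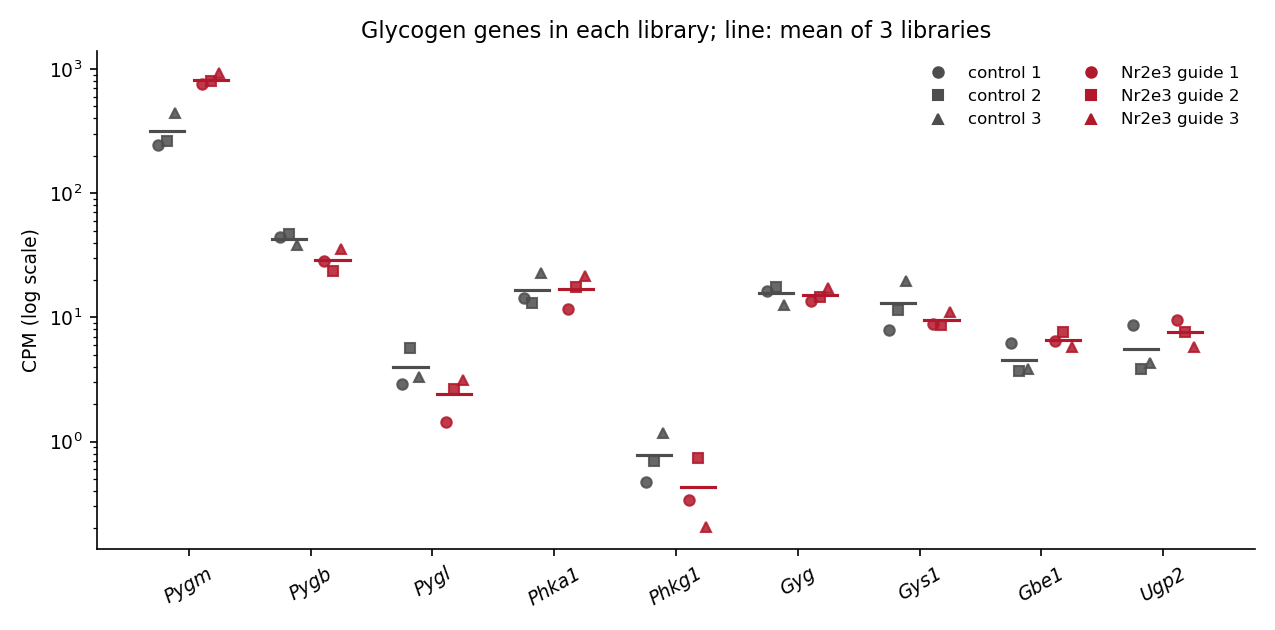
CPM of the 9 genes in each of the 6 libraries on a log axis, with the mean of each group as a line, breakdown genes at the left and synthesis genes at the right. Pygm separates the groups upward (750.4 to 921.0 against 242.6 to 442.8 CPM), Pygb downward, and the other 7 genes overlap.

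In edgeR's quasi-likelihood fit over all genes, with Benjamini-Hochberg adjusted p under 0.05 as the threshold, 0 of the 9 members passed, against 0.344% of the 17138 genes tested (0.315% higher and 0.0292% lower in guide libraries). Pygm had an adjusted p of 0.107 in that fit. Pygm and Pygb were the 2 members with an unadjusted p under 0.05, against 976 of the 17138 genes tested. All 9 passed the filter on low counts. Their median log2 fold change was -0.05, beside -0.01 over all genes tested, with 4 members above 0 and 5 below. Groups did not overlap for 2 of the 9, 1 in each direction, against 12.1% of all genes tested. Nothing is read from these shares, since the comparison had a part in the choice of the genes.

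The call on Pygm depended on the setting, with the direction the same in all 13 alternatives (log2 fold change 1.22 to 1.69). It passed in DESeq2 (adjusted p = 8.57e-05, where 1.29% of genes passed), in limma-voom (0.0017, 1.04%), in edgeR without a filter on low counts (0.00188, 0.48%) and in edgeR without control replicate 3 (0.00674, 0.5%). In the other 9 its adjusted p ran up to 0.511. The other 8 members passed in 0 of the 13.

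In the wider glycogen pathway no gene passed the main edgeR test, which filters low counts, and 1 passed without that filter. The list held 41 names chosen by function, of which 40 were in the tables (Gyg1 is an older name of Gyg) and 34 were tested. By edgeR 0 passed in either direction, against 0.344% of all genes tested. An unadjusted edgeR p under 0.05 was found for 3 of the 34, against 976 of all 17138 genes tested. DESeq2 called 1 and limma-voom 2. The shares of all genes passing were 1.29% in DESeq2, 1.04% in limma-voom and 0.48% in edgeR without the filter. The median log2 fold change of the 34 was -0.03, with 16 above 0 and 18 below. Groups did not overlap in CPM for 8 of them, against 12.1% of all genes tested. Guide libraries lay above for Ppp1cc, Nhlrc1, Prkaa1 and Prkaa2 and below for Pgm2, Phka2, Gpi1 and Prkag1. With counts scaled to library totals without TMM, the groups overlapped for Ppp1cc, Prkaa1, Gpi1 and Prkag1, so those separations depend on the scaling. Glycogen synthase 2, the liver form, had 1 count in 1 library and 0 in the other 5, and Gys1 was the synthase transcript found in all 6.

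The gene with the smallest p of this list was Prkaa2, the alpha-2 subunit of AMP-activated protein kinase, which is named because of its values. It was at 31.1, 30.9 and 34.9 CPM with the Nr2e3 guide and 13.6, 14.4 and 8.10 CPM with the control guide, with no overlap. The means differed 2.68-fold (edgeR adjusted p = 0.106), and it passed in DESeq2 (adjusted p = 0.000123), limma-voom (0.0142) and edgeR without a count filter (0.0108). Prkaa1, the alpha-1 subunit, was at 18.7 ± 0.412 and 17.2 ± 1.14 CPM (a log2 fold change of 0.12 with SE 0.17 and an edgeR adjusted p of 0.995).

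No enzyme that links glycogen to glycolysis passed the edgeR test, and Hk2 passed in limma-voom (adjusted p = 0.0494). Hk2, a hexokinase, was at 648.0, 422.4 and 848.6 CPM with the Nr2e3 guide and 220.6, 257.0 and 476.1 CPM with the control guide (a log2 fold change of 1.01 with SE 0.35 and an edgeR adjusted p of 0.682). Hk1, the main hexokinase of neurons, was at 569 ± 238 against 901 ± 346 CPM (-0.66, SE 0.38, adjusted p = 0.992). Pgm1, phosphoglucomutase, which interconverts glucose-1-phosphate and glucose-6-phosphate, stood at 54.7 ± 3.16 and 56.5 ± 4.12 CPM. The related Pgm2 (2.77 ± 1.07 against 4.55 ± 0.847 CPM) and Pgm2l1 (24.2 ± 1.37 against 32.1 ± 8.98 CPM) did not pass. Gpi1 was at 901 ± 29.9 and 1061 ± 173 CPM and the glucose transporter Slc2a1 at 152 ± 30.1 and 171 ± 38.7 CPM. Slc2a3, named because of its values, had the lowest log2 fold change of the list (-2.20, SE 0.85, edgeR adjusted p = 0.792) through 1 library, control replicate 3 at 146.7 CPM against 11.1 to 17.3 CPM in the other 5.

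Among regulators, Gsk3b, a kinase that inhibits glycogen synthase, was at 312 ± 20.9 and 319 ± 32.0 CPM, and Ppp1ca, a catalytic subunit of the phosphatase that acts against it, at 232 ± 21.8 and 230 ± 17.4 CPM. Of the 7 subunits that target this phosphatase to glycogen (Ppp1r3a to Ppp1r3g), 4 were under the filter on low counts. The most abundant, Ppp1r3c, was at 9.12 ± 2.13 against 14.4 ± 4.58 CPM (a log2 fold change of -0.66 with SE 0.31 and an edgeR adjusted p of 0.926) and is named because of its level.

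**Figure D4:**
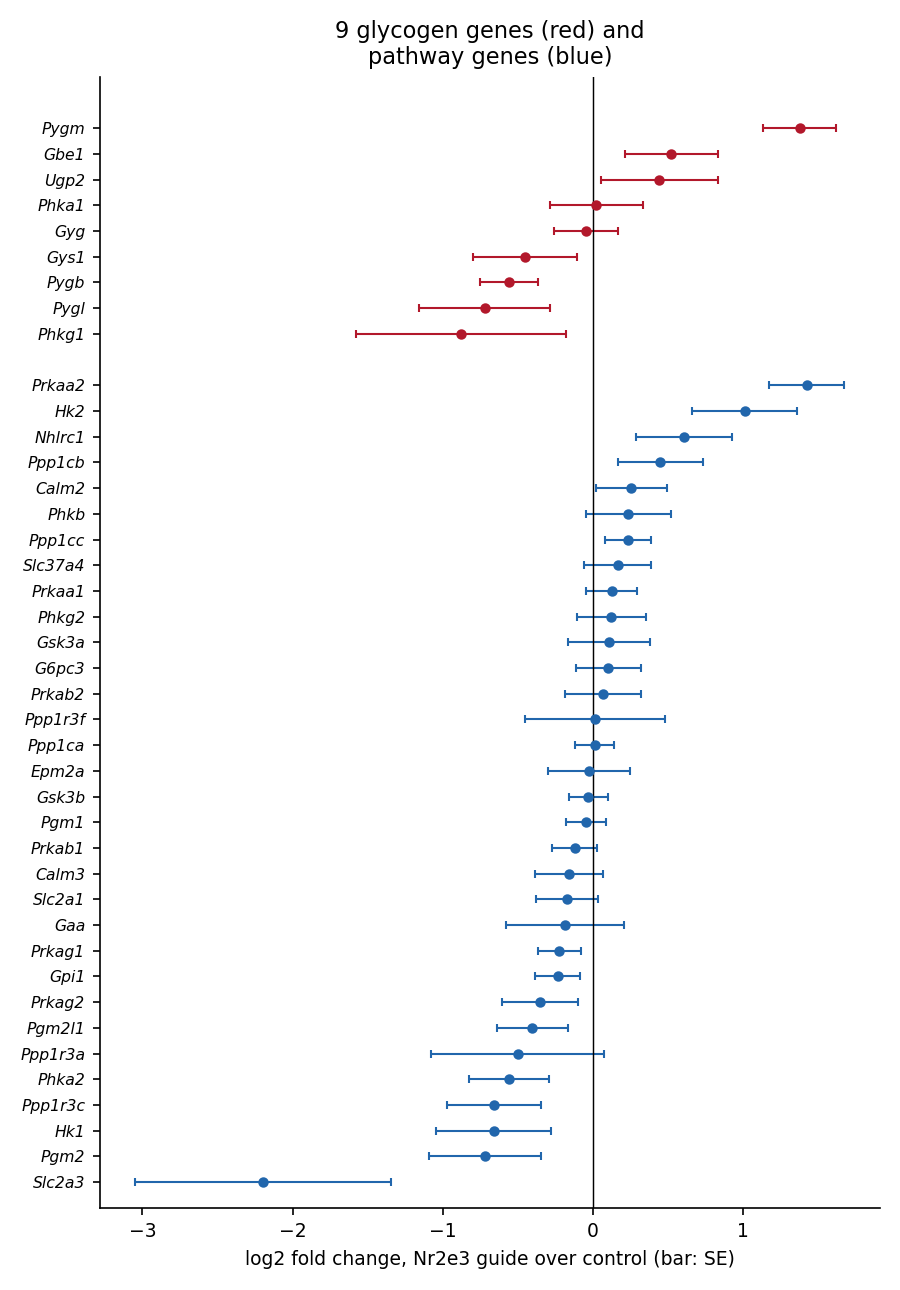
Log2 fold change of guide over control with its SE (bars) for the 9 glycogen genes (red) and 32 tested genes of the wider pathway (blue). Pygm (1.38) and Prkaa2 lie farthest above 0, and Slc2a3 (-2.20) farthest below with the widest bar.

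Markers of other cells were read beside Pygm. Of 10 skeletal muscle markers, 7 were under 1 CPM in all libraries, and the 10 summed to 2.20 to 3.74 CPM with the Nr2e3 guide and 5.18 to 9.19 CPM with the control guide, while Pygm was at 242.6 CPM or more throughout. Actn3 (0.379 to 4.12 CPM) and Ckm (0 to 3.71 CPM) were the most abundant. Muller glia markers (8 genes, 0 at 0 counts throughout) summed to 796 to 1270 CPM with the Nr2e3 guide and 668 to 1109 CPM with the control guide, with Clu as the largest part (303.9 to 1099 CPM). For Glul, the next in level, Rlbp1 and Slc1a3, defining genes of these cells, the guide range reached from 56.4 to 106.2, 33.9 to 77.9 and 11.2 to 16.7 CPM and the control range from 61.0 to 123.3, 37.6 to 92.6 and 7.75 to 17.4 CPM. The muscle sum was low in all libraries and lower in every guide library than in every control. The part of either list in the level of Pygm was not tested.

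Other lists were read in the same way. Microglia markers summed to 25.8 to 138.4 CPM in guide and 21.9 to 234.5 CPM in controls, led by Ctss and C1qb, and leukocyte markers to 20.7 to 25.5 and 10.1 to 49.0 CPM, led by Lyz2 and Itgam, with S100a8 and S100a9 at 0 counts in 5 of 6 libraries. Amacrine markers ran from 56.4 to 242 CPM in guide and 126 to 294 CPM in controls, led by Slc6a9 and Calb2, and bipolar markers from 406 to 414 and 356 to 381 CPM, led by Otx2, which photoreceptors also express, and Prkca. Pigment epithelium markers (1.18 to 3.47 and 5.13 to 13.1 CPM, led by Dct and Rdh5), astrocyte markers (3.83 to 8.21 and 2.64 to 4.81 CPM, led by Gfap and S100b) and vascular markers (1.59 to 2.65 and 1.36 to 2.65 CPM, led by Pecam1 and Pdgfrb) were low. The pigment epithelium and bipolar sums did not overlap between the groups, and their part in the values of the 9 genes was not tested.

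Cone markers differed in direction among themselves, with 4 of 9 log2 fold changes above 0 and 5 below. By edgeR 0 passed, against 0.344% of all genes tested, and 3 had an unadjusted p under 0.05, against 976 of 17138. Every guide library lay above every control for 3 of the 9 (Gnat2, Pde6c and Pde6h) and below for 0, while groups did not overlap for 12.1% of all genes tested. The edgeR adjusted p was 0.121 for Gnat2 and 0.0899 for Pde6c. The 9 genes summed to 13340 to 17120 CPM with the Nr2e3 guide and 3775 to 8130 CPM with the control guide, with none at 0. Gnat2, the cone transducin alpha subunit, was at 8426, 7135 and 7276 CPM with the Nr2e3 guide and 1126, 1005 and 184 CPM with the control guide, and Opn1sw, the short-wavelength cone opsin, at 1575, 920 and 696 CPM and 2270, 3017 and 382 CPM. In control replicate 3 Pygm was the highest of the controls, whereas all 9 cone markers but Gnb3 were at their lowest among controls there. Gnb3 was at 933.9, 1037 and 2450 CPM in control and 1894, 2038 and 2082 CPM in guide libraries. Without control replicate 3 the log2 fold change of Pygm was 1.69 (SE 0.15).

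**Figure D5:**
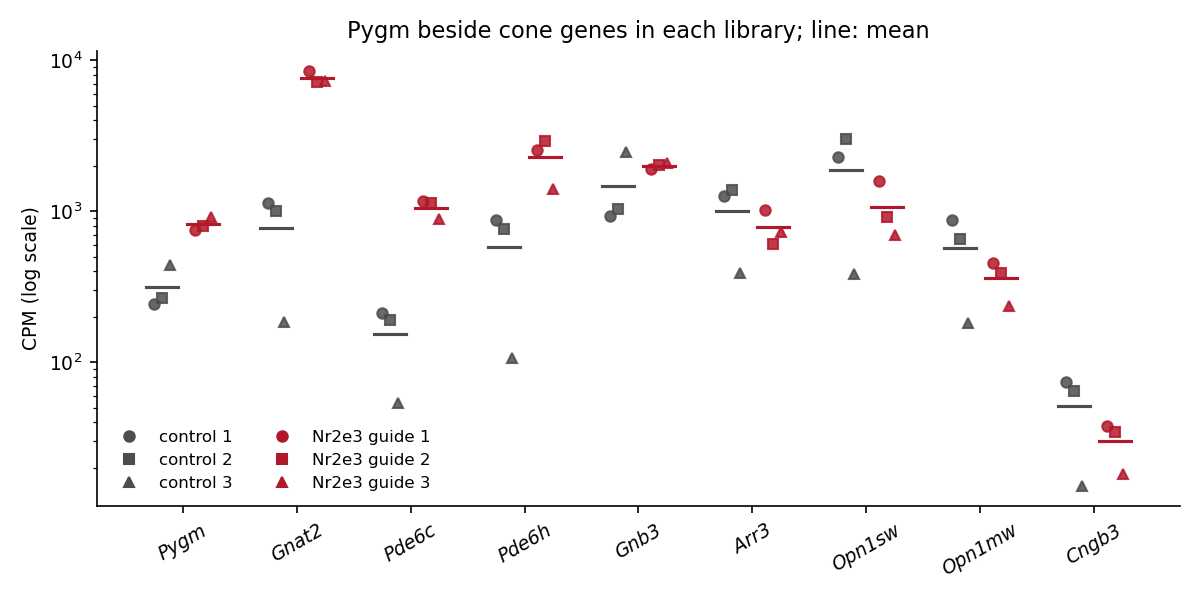
CPM of Pygm and 8 of the 9 cone markers in each library on a log axis, with group means as lines. In control replicate 3 (grey triangle) Pygm and Gnb3 are the highest of the controls, and the other 7 cone markers shown are the lowest.

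The genes whose pattern over the 6 libraries was most like that of Pygm were named by Pearson's r on log2(CPM + 1) among 9533 tested genes with a mean of at least 5 CPM. They included Cnppd1 (r = 0.999), Atxn7l3b (0.999), Bub1b (0.998), Phactr1 (0.998), Ipo4 (0.997), Myh10 (0.989) and Zc3h18 (0.987). Their levels ranged from Zc3h18, at 9.07 ± 0.335 in guide and 7.17 ± 0.499 CPM in control libraries, to Ipo4, at 359 ± 106 and 56.5 ± 40.9 CPM. Bub1b was at 342.7 ± 23.0 and 123.4 ± 41.1 CPM, 2.78-fold, below Pygm in level. These r values share 6 libraries in 2 groups, so a gene that differs between the groups tends to score high, and 1.76% of the genes had r over 0.9. For the genes just named, r on deviations from the group means was 0.903 (Zc3h18) to 0.993 (Bub1b). Among the members r with Pygm was 0.53 for Gbe1, 0.34 for Phka1, 0.29 for Ugp2, -0.07 for Gys1, -0.31 for Gyg and -0.81 for Pygb. On deviations from the group means, which leave out the difference between the groups, r was 0.96 for Gys1, 0.83 for Phka1, -0.20 for Pygb, -0.55 for Gyg, and -0.57 for both Gbe1 and Ugp2. The sign therefore turned for Gbe1 and Ugp2. For Gys1 the r of -0.07 was too small to give a sign (Spearman's rank correlation 0.09). Control replicate 3 was the highest control for both Gys1 and Pygm. Pygl and Phkg1 were below the 5 CPM needed.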

How the data were processed

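The authors deposited unnormalised read counts, in 1 table for each library that lists 49997 gene symbols and 5 further entries without a gene. STAR 2.7.3a, cutadapt, HTSeq 0.12.4, DESeq2 1.42.0 and GRCm38 (mm10) are named, per the submitters' processing notes. For annotation and strand setting the entry is: not given in the sources used here. The cDNA kit named in the labels does not mark strand. Entries without a gene, 21.6 to 23.7% of all counts, were left out.

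Libraries come from separate animals. Within each group a chi-square comparison of counts found no pair close enough to be 1 library deposited again. The main test was edgeR 4.0.16 in R 4.3.3 (TMM, filterByExpr with min.count 10 and 15 counts in total, glmQLFit, glmQLFTest, group as the only term), and adjusted p-values over all genes tested come from it unless DESeq2 1.42.0 or limma 3.58.1 (voom with quality weights) is named. SE is the size of the log2 fold change over the root of the F statistic. The script was tested on simulated data. Exon lengths and overlaps come from GENCODE M21, coordinates and promoters from RefSeq on GRCm38.p6, where all 9 members matched.

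The members and lists were chosen with earlier results of these data known. Genes named are the members, of the wider pathway those called, the 8 most abundant, genes of phosphorylase kinase and related enzymes including phosphoglucomutase, the 8 most like Pygm (leaving out Gm numbers and Rik clone names), and the 2 most abundant of each marker list. Others were named after their values were seen. Some genes within this rule are not reported here.

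Alternatives were DESeq2 size factors, no count filter (total above 0), DESeq2, limma-voom, a block for the replicate number, a sex term, each library left out and, added after seeing the data, library totals without TMM. For isoform shares the length was varied, and for likeness to Pygm the measure.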

Additional observations from a re-analysis of the deposited data

How the results depend on the processing

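Over all genes edgeR called 59, and 60 with DESeq2 size factors or 42 with library totals. It called 155 without a count filter, DESeq2 243 and limma-voom 179. With the replicate block it called 32, with a sex term 6, and with 1 library left out 14 to 89. Of the 9 members, 1 (Pygm) passed without a count filter, in DESeq2 and in limma-voom, and 0 to 1 with a library left out, the 1 without control replicate 3. Of the wider pathway, 1 passed without a count filter, 1 in DESeq2 and 2 in limma-voom (Prkaa2 in each, with Hk2 in limma-voom), and 0 with any library left out. The median log2 fold change of the members, -0.05, was -0.19 in limma-voom, -0.51 with a sex term, which leaves the male guide library to set the difference, and -0.19 to 0.027 with a library left out. The cause was not tested.

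Over the 13 alternatives Pygm, Gbe1 and Ugp2 stayed above 0 and Pygb, Pygl, Gys1 and Phkg1 below it. Gyg ran from -0.21 to 0.05 and Phka1 from -0.51 to 0.30. Library totals moved the median of all genes from -0.01 to -0.09. The mean share of Pygm among phosphorylases was 97.6% in guide and 90.5% in control libraries, 96.3% and 86.2% without division by length, and again 96.3% and 86.2% by coding length. Leaving out a library gave 97.4 to 97.7% and 88.7 to 91.5%. Of the 8 genes most like Pygm, 3 were among the first 8 by Spearman's rank correlation and 0 by deviations from the group means. On those deviations their r with Pygm was still 0.903 (Zc3h18) to 0.993 (Bub1b), with other genes scoring higher. The replicate numbers name different animals. Same-numbered libraries had correlated deviations of 0.167, -0.124 and 0.143, guide replicate 1 correlated best with control replicate 2, and the block changed no call among the 9 members or the wider pathway. Phkg1 and Pygl rest on few counts, which limits their precision.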
